A study of Mus musculus with 6 samples.

Results

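The 35 genes described here encode solute carriers that bring nutrients, ions and vitamins across the small intestinal epithelium. They were taken by name and grouped by substrate: 4 for sugars, 11 for amino acids and peptides, 11 for ions, 4 for vitamins and 5 for other organic solutes. The list was chosen with earlier results of these data known. A probe set counted for a gene only where that gene was its sole annotated symbol, and the brightest such probe set stood for the gene. By that rule 34 of the 35 genes were measured, of 18193 genes in all. Slc28a2, a nucleoside carrier, was not, because its probe set also lists Slc28a2b. All 34 lay above the threshold for dim probe sets, a mean intensity of 38.9, which 13042 genes passed.

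Enterocytes absorb in 2 steps. Carriers in the brush border membrane take solutes up from the lumen, many of them driven by the sodium or proton gradient, and carriers in the basolateral membrane pass them on towards the blood. The sodium pump in the basolateral membrane keeps the sodium gradient up, and sodium-proton and chloride-bicarbonate exchangers of the brush border absorb salt. Many of these carriers are most abundant in mature villus cells, whereas the chloride-loading carrier Slc12a2 is mainly a gene of crypt cells.

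The mice had L/L alleles, a notation that usually denotes loxP-flanked alleles, of Fitm2 (FIT2), a gene for an endoplasmic reticulum protein needed for lipid droplet formation. The control mice were L/L, and the KO mice were L/L with ROSA26CreERT2, a Cre recombinase made in most cell types and activated by tamoxifen, so that the deletion was not limited to the epithelium. All mice, controls included, were given tamoxifen at 100 µg per g body weight into the peritoneum on days 1, 2 and 3. Whether the mice taken on day 2 or 3 received all doses is not stated in the labels, and neither is their age. Since no control carried Cre, effects of Cre and of the loss of Fitm2 cannot be told apart. Whole small intestine was taken on day 2 (pools of 6 L/L and 7 KO mice), day 3 (6 and 6) and day 5 (8 and 7), and each pool gave 1 array. A difference on a single day therefore has no replicate and no test.

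Array medians ran from 57.7 to 59.6, and the correlation between arrays over the 13042 genes kept from 0.978 to 0.997. The pairs with the KO day 5 array were the lowest, from 0.978 to 0.987. Each day 5 difference between genotypes rests on that array. The probe set for Fitm2 read 193, 223 and 211 in L/L against 123, 127 and 120 in KO on days 2, 3 and 5, so it was lower in KO on each day. Enterocyte markers were bright on every array: 12 of 14 listed genes, Alpi, Fabp1 and Fabp2 among them, were above the threshold, and their summed intensity ran from 173908 to 186909. The tissue is bulk RNA, in which fewer cells of a type and less RNA per cell cannot be told apart.

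Promoters of 3 of the genes are shown because they stand for the 3 patterns described below: Slc1a1 for the difference that grew with day, Slc26a3 for an ion exchanger lower in KO on day 5, and Slc3a1 for an amino acid carrier that was not lower. Each runs from 250 bases before to 50 bases after the annotated start, 5′ to 3′, in RefSeq sequence of GRCm38.p6. Capitals mark matches, on either strand, to letters bound by epithelial or general factors.
Slc1a1, chr19:28834885-28835184, plus strand: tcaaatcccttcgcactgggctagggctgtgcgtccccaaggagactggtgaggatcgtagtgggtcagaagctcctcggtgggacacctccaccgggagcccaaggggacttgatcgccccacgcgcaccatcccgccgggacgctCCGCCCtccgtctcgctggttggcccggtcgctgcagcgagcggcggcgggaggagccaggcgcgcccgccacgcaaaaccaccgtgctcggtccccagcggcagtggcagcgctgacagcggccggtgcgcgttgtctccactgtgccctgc
Slc26a3, chr12:31437969-31438268, plus strand: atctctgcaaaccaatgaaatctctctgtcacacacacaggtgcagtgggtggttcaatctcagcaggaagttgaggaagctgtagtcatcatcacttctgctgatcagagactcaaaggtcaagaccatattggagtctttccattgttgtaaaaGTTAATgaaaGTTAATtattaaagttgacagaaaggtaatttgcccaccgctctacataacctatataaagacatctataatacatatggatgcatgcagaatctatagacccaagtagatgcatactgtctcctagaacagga
Slc3a1, chr17:85028097-85028396, plus strand: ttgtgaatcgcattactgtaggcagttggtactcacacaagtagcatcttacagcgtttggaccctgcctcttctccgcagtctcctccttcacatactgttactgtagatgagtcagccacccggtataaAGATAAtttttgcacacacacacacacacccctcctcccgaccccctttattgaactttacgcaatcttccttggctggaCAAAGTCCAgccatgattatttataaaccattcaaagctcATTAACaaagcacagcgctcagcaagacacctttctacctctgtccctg
In Slc1a1 the capitals mark GGGCGG, the letters of SP1, here on the reverse strand. In Slc26a3 they mark a pair of matches to GTTAAT, core letters of HNF1. In Slc3a1 they mark, from left to right, AGATAA of GATA factors, CAAAGTCCA of HNF4 and GTTAAT on the reverse strand.

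RefSeq promoters were matched for 28 of the 34 genes and searched on both strands for those letters and for TTTATG of CDX factors. No motif holds another, though matches may overlap at their ends. GTTAAT was present in 6 of the 28 genes (Slc16a10, Slc26a3, Slc36a1, Slc39a5, Slc3a1 and Slc7a7), against 8.24% of 27025 genes with promoters of the same length. AGATAA was present in 4 genes, against 12.7% of all. CAAAGTCCA was present in Slc3a1, against 0.555% of all, TTTATG in 0 of 28, against 13.6%, and GGGCGG in 17, against 38.2%. Of the 9 genes that were lower in KO on day 5, as given later, 8 had a promoter, with GTTAAT in 3 of them and GGGCGG in 5. A match is a description of the letters in this window and not of binding.

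In outline, the carriers were nearly alike in both genotypes on day 2 and parted by day 5. The median difference, KO minus L/L on the log2 scale, stood at -0.01, -0.03 and -0.14 on days 2, 3 and 5, against 0.01, -0.01 and 0.02 over all genes. On day 2 no carrier differed by 1.5-fold or more, a size that only 0.429% of all genes reached upwards and 0.107% downwards. Small differences on day 2 were thus usual for genes at large. All 34 differences of the carriers were under 0.3 in size. On day 3 Slc1a1 was past 1.5-fold lower (background 0.506%) and Slc15a2 past 1.5-fold higher (background 1.1%), while 32 of the 34 were under 0.5 in size. The shares of all genes under 0.3 and 0.5 were not counted. On day 5, 9 of 34 carriers (26.5%) were lower in KO by 1.5-fold or more, against 3.1% of all genes, and 1 was higher, against 5.19%. Since the list was chosen with earlier results of these data known, the contrast with all genes is not an independent test. By group, the lower ones were 1 of 4 for sugars, 3 of 11 for amino acids and peptides, 4 of 11 for ions, 1 of 4 for vitamins and 0 of 4 for other solutes.

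**Figure D1:**
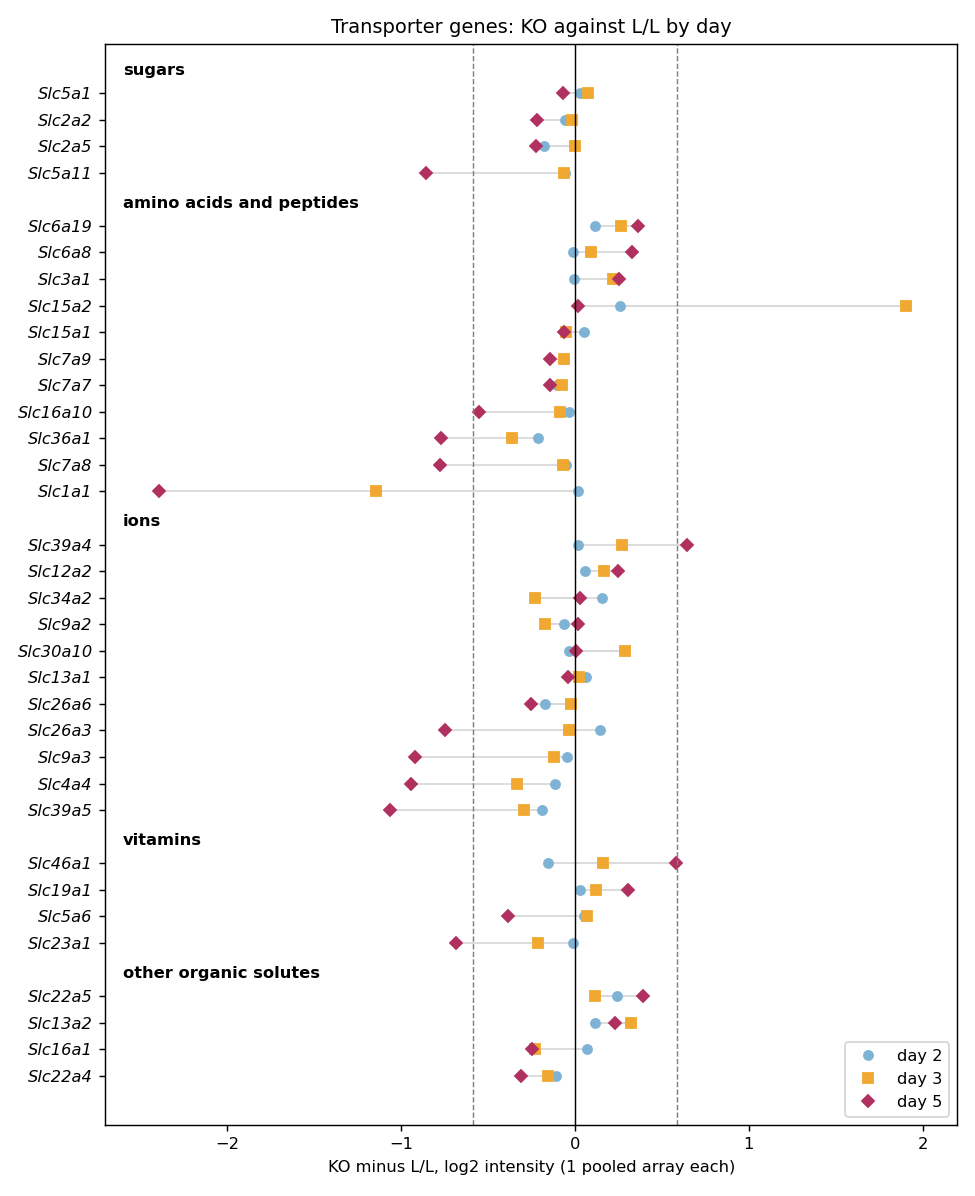
Difference in log2 intensity, KO minus L/L, for each of 34 carriers (rows, grouped by substrate) on day 2 (circles), day 3 (squares) and day 5 (diamonds), each from 1 pooled array per genotype; dashed lines mark 1.5-fold. Day 2 differences lie within 0.3 of 0, and 9 diamonds lie left of the lower dashed line, Slc1a1 farthest at -2.39.

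Of the sugar carriers, the main ones differed little between genotypes. Slc5a1, the sodium-glucose cotransporter of the brush border, read 17400, 16257 and 15325 in L/L against 17763, 17127 and 14588 in KO on days 2, 3 and 5. Slc2a2, which passes glucose, galactose and fructose through the basolateral membrane, read 6697, 6935 and 6853 in L/L against 6428, 6848 and 5897 in KO. Slc2a5, the fructose carrier of the brush border, read 1001, 1047 and 882 in L/L against 885, 1050 and 755 in KO. The KO day 5 array was the lowest of the 6 for all 3 genes, with day 5 differences of -0.07, -0.22 and -0.22. Slc5a11, a sodium-coupled carrier of myo-inositol, differed more: it read 1032, 908 and 648 in L/L against 990, 870 and 357 in KO. It was lower on day 5 than on day 2 in both genotypes, and on day 5 it was 1.81-fold lower in KO than in L/L.

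Among the carriers of amino acids and peptides, Slc1a1 stood apart. It encodes the sodium-coupled, high-affinity carrier of glutamate and aspartate in the brush border. Its probe set read 388, 546 and 560 in L/L against 392, 247 and 107 in KO on days 2, 3 and 5. The genotypes were level on day 2; then L/L was higher on both later days and KO lower on each. The difference was 0.02, -1.15 and -2.39 on the log2 scale, a level 5.25-fold lower in KO on day 5. The difference fell by 0.78 per day (SE 0.07; limma, adjusted p = 0.0373 over all genes), the one change with day among the carriers that passed the test. This call was lost when dim genes were not filtered out (adjusted p = 0.169). Its mean over the 3 days, -1.17 ± 1.21 (SD, n = 3 days), did not pass (limma, adjusted p = 0.401). The other probe sets of the gene read -2.76 and -1.39 on day 5.

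The next 3 carriers of this group, all of neutral amino acids, were lower in KO on each day and most so on day 5. Slc36a1, a proton-coupled carrier of small amino acids such as glycine and proline, read 892, 970 and 1097 in L/L against 768, 756 and 642 in KO. It was lower in KO on each day, and 1.71-fold lower on day 5. Slc7a8, a basolateral exchanger of neutral amino acids, read 1953, 1831 and 1880 in L/L against 1886, 1747 and 1096 in KO, so that only the KO day 5 array stood below the others. Its day 5 difference was -0.78. Slc16a10, the basolateral carrier of aromatic amino acids, lay just short of 1.5-fold at -0.55, with 1953 in L/L against 1334 in KO on day 5.

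Other carriers of amino acids differed less on day 5, some higher and some lower in KO. Slc6a19, the main brush border carrier of neutral amino acids, read 5319, 4536 and 4969 in L/L against 5773, 5447 and 6389 in KO. Every KO array stood above every L/L array, but the mean difference of 0.25 ± 0.12 (SD, n = 3 days) did not pass the test (limma, adjusted p = 0.381). Its second probe set gave only 0.03 on day 5. The subunits of the brush border carrier of cystine and basic amino acids differed in opposite directions: the heavy chain Slc3a1 read 2640 in L/L against 3153 in KO on day 5 (0.26), and the light chain Slc7a9 read 4973 and 4511 (-0.14). Slc6a8, which carries creatine, differed by 0.33 on day 5, and Slc7a7, the basolateral light chain for basic amino acids, by -0.14. Slc15a1, the proton-coupled peptide carrier of the brush border, read 3258, 2877 and 3493 in L/L against 3384, 2774 and 3347 in KO, and the differences were 0.06, -0.05 and -0.06.

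Slc15a2, a high-affinity peptide carrier better known from kidney, was near the dim threshold. It read 59.0, 18.5 and 73.0 in L/L against 70.7, 69.3 and 73.8 in KO. Its day 3 difference rests on the L/L array, which lay under the threshold. With that array raised to the threshold, KO was at least 1.78-fold higher on day 3, whereas a second probe set gave a log2 difference of 0.14.

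The ion carriers held 4 of the 9 genes that were lower on day 5. Slc9a3, the sodium-proton exchanger of the brush border, read 1547, 1291 and 1889 in L/L against 1500, 1189 and 998 in KO. Slc26a3, the chloride-bicarbonate exchanger that works beside it in salt absorption, read 2250, 2316 and 2626 in L/L against 2489, 2261 and 1564 in KO. For both genes the L/L day 5 array was the highest of the 6 and the KO day 5 array the lowest, with folds of 1.89 and 1.68. Slc4a4, a sodium-bicarbonate cotransporter of the basolateral membrane, read 1012, 1212 and 1240 in L/L against 935, 964 and 645 in KO. It was lower in KO on each day, by 1.92-fold on day 5. The changes with day were -0.31 per day for Slc9a3 (limma, adjusted p = 0.0781), -0.31 for Slc26a3 (adjusted p = 0.059) and -0.28 for Slc4a4 (adjusted p = 0.062), none past 0.05.

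The zinc carriers differed in opposite directions. Slc39a5, a zinc importer of the basolateral membrane, read 1428, 1371 and 1029 in L/L against 1255, 1120 and 493 in KO, and was 2.09-fold lower in KO on day 5. Slc39a4, the zinc importer of the brush border, read 1623, 1671 and 1294 in L/L against 1640, 2012 and 2026 in KO, and was 1.57-fold higher in KO on day 5. The L/L array of day 5 was the lowest of the 6 for Slc39a4. Against the mean of all 3 L/L arrays it was 1.33-fold higher. The slopes, -0.31 and 0.21 per day, did not pass (limma, adjusted p = 0.0716 and 0.106).

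The remaining ion carriers stayed within 0.26 in size on day 5. Slc12a2, which loads crypt cells with chloride, gave 0.06, 0.17 and 0.25 on days 2, 3 and 5. Slc26a6, another anion exchanger of the brush border, gave -0.25 on day 5. Slc9a2, a second sodium-proton exchanger, Slc34a2, the sodium-phosphate cotransporter, and Slc30a10, a manganese exporter, gave 0.02, 0.03 and 0.01.

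The vitamin carriers were split. Slc23a1, the sodium-coupled ascorbate carrier, read 1622, 1491 and 1642 in L/L against 1608, 1288 and 1021 in KO, and was 1.61-fold lower on day 5. A second, dimmer probe set of Slc23a1 gave -0.43 on day 5, short of 1.5-fold. Slc5a6, which carries biotin and pantothenate, read 309, 269 and 261 in L/L against 320, 283 and 199.8 in KO. The KO day 5 array was the lowest of the 6, with a day 5 difference of -0.39. The folate carriers were on the other side: Slc46a1, the proton-coupled folate carrier, read 2017, 1760 and 1259 in L/L against 1809, 1967 and 1886 in KO. Its day 5 difference of 0.58 lay just under 1.5-fold and came with the lowest array of the 6, L/L day 5. Slc19a1, the reduced folate carrier, gave 0.31 on day 5, and L/L day 5 was again the lowest array of the 6. Against the mean of the 3 L/L arrays, KO day 5 differed by only 0.20 for Slc46a1 and 0.09 for Slc19a1.

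Of the other organic solutes, Slc22a5, the carnitine carrier, was higher in KO on each day (0.24, 0.12 and 0.39), and Slc13a2, the dicarboxylate carrier, likewise (0.11, 0.32 and 0.23). Slc22a4, a carrier of ergothioneine, was lower on each day (-0.11, -0.15 and -0.31). Slc16a1, the monocarboxylate carrier of lactate and butyrate, gave 0.07, -0.23 and -0.25. None of these 4 passed the test over days.

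**Figure D2:**
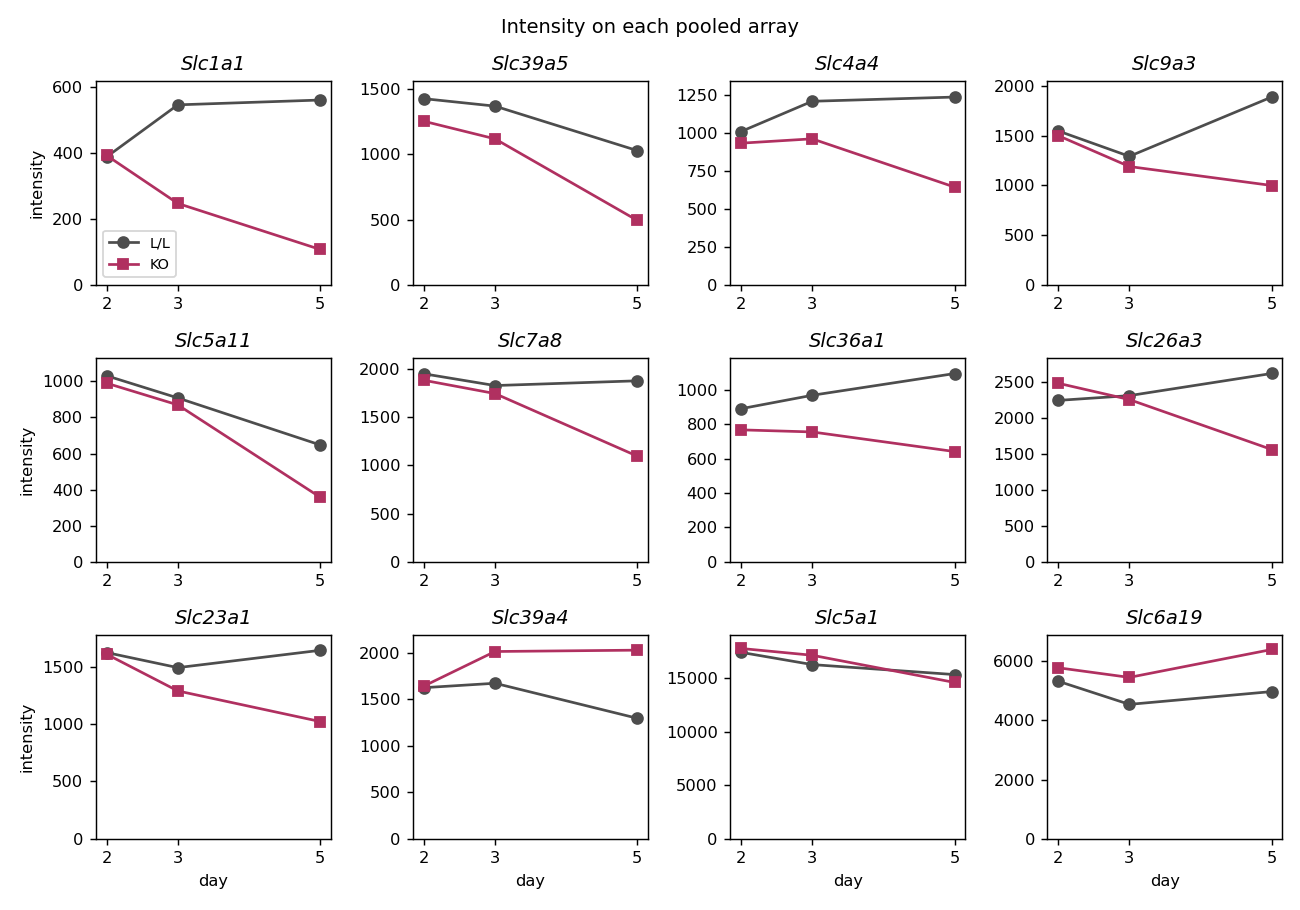
Linear intensity (vertical axis, from 0) against day (2, 3 and 5) for 12 carriers, L/L as grey circles and KO as red squares, each point 1 pooled array and without error bars for that reason. Slc1a1 in KO goes from 392 to 107, Slc39a4 in KO ends above L/L, and Slc5a1 runs close together in both genotypes.

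Across all carriers, the test of the genotype difference over the 3 days called 0 of 34, against 0.023% of all genes (3 of 13042), and 8 carriers had an unadjusted p under 0.05, as did 1603 genes of all. Leaving out day 2, 3 or 5 gave between 0 and 2 calls over all genes. For 20 of the 34 the SD over days was larger than the size of the mean difference, a count not made over all genes. The test of the change with day called 1 of 34 (2.94%), Slc1a1, against 1.23% of all genes, 84 upwards and 76 downwards. A further look at its unadjusted p under 0.05 gave 14 carriers, 11 downwards and 3 upwards, against 2404 of all genes. How many carriers passed depended on the setting: 10 of them with the trend setting of limma (Slc1a1, Slc4a4, Slc5a11, Slc7a8, Slc9a3, Slc23a1, Slc26a3 and Slc39a5 downwards, Slc39a4 and Slc46a1 upwards) and 0 without the filter.

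By sign, 13 of 34 carriers (38.2%) were lower in KO on all 3 days, against 17.4% of all genes, and 7 (20.6%) were higher on all 3, against 22.1%. The KO day 5 array was the lowest of the 6 for 18 carriers (52.9%), against 25.3% of all genes, and the highest for 7 (20.6%), against 27%. These shares, too, come from a list chosen with earlier results of these data known. Set against the mean of the 3 L/L arrays in place of L/L day 5, an alternative chosen after the values were seen, each of the 9 lower genes was still 1.5-fold or more lower, from 1.53-fold for Slc26a3 and Slc36a1 to 4.61-fold for Slc1a1. That comparison keeps the KO day 5 array by which the 9 were picked, and L/L day 5 is among the 3. It is therefore not an independent check. By membrane, 6 of 22 brush border carriers and 3 of 7 basolateral ones were among the 9, with day 5 medians of -0.11 and -0.55, and 0 of 5 that were not placed. The sides were assigned from general knowledge with the values known, and their difference was not tested.

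**Figure D3:**
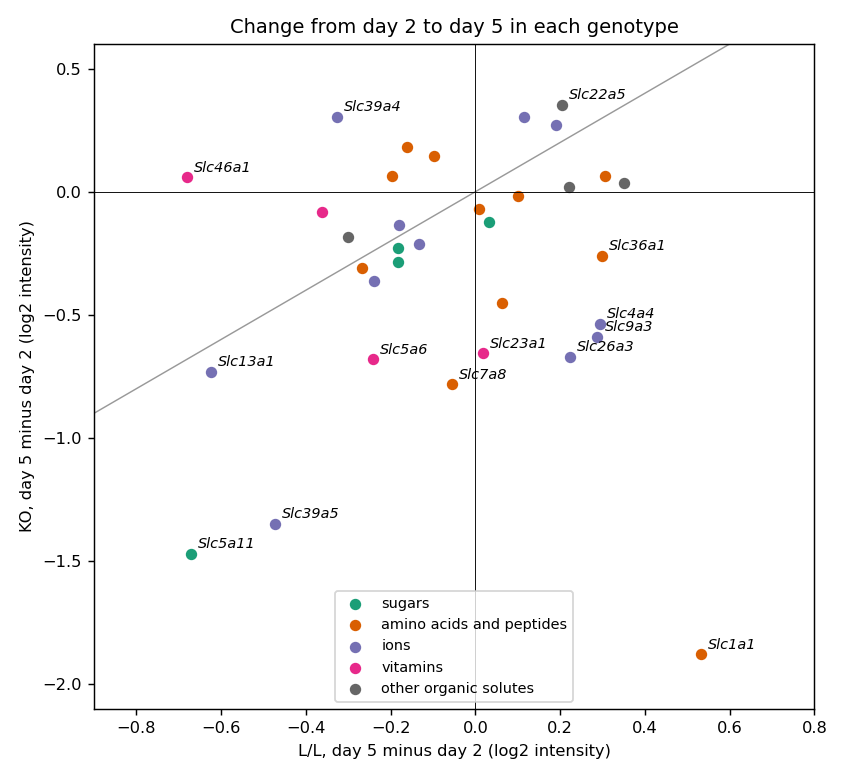
Difference between day 5 and day 2 in KO (vertical axis) against that in L/L (horizontal axis), in log2 intensity, each point 1 carrier coloured by substrate; the grey line marks equal differences. Slc5a11 and Slc13a1 were lower on day 5 in both genotypes, Slc1a1 was higher in L/L and lower in KO, and Slc46a1 was lower in L/L alone.

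Days also differed within the control mice. From day 2 to day 3 in L/L, Slc15a2 alone was lower by 1.5-fold or more, against 0.736% of all genes, and 0 carriers were higher, against 0.882%. With the dim array raised to the threshold, the brightest probe set of Slc15a2 was at least 1.52-fold lower. Its other probe sets gave log2 differences of only -0.29 and -0.26. From day 2 to day 5 in L/L, 3 carriers (8.82%) were lower, against 1.77% of all genes, and 0 were higher, against 1.15%. They were Slc46a1 (-0.68), Slc5a11 (-0.67) and Slc13a1 (-0.62). Summed markers of distal small intestine also differed between days in L/L, at 4602, 6783 and 6927 on days 2, 3 and 5. Those of proximal small intestine read 1104, 982 and 1021. Whether the segment sampled had a part in the carriers' differences was not tested. In KO, which shares its day 5 array with the comparison above, 9 carriers (26.5%) were lower on day 5 than on day 2, against 3.63% of all genes, and 0 were higher, against 4.63%. They include Slc13a1 and Slc5a6, which did not reach 1.5-fold between the genotypes.

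Slc13a1, the sodium-sulphate cotransporter of the brush border, read 2334, 1608 and 1514 in L/L against 2440, 1633 and 1470 in KO. Both genotypes stood higher on day 2 than on the later days. Over both genotypes the log2 differences from day 2 were -0.56 on day 3 and -0.68 on day 5 (limma, adjusted p = 0.441 and 0.0995), and neither passed. The dimmer probe set of this gene went the other way in L/L, from 259 on day 2 to 407 on day 5. Slc5a11 differed by -1.07 between days 5 and 2 over both genotypes (limma, adjusted p = 0.126). In these tests of day 5 and of day 3 against day 2 by limma, 0 carriers passed, against 0% of all genes in each; unadjusted p was under 0.05 for 10 and 5 carriers and for 2758 and 1275 genes.

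Where a carrier had more than 1 probe set above the threshold, the day 5 differences had the same sign within each gene, for 17 of 17 carriers. These probe sets read the same pooled RNA, so the agreement is not replication, and the share over all genes was not counted. Some differences were near 0, as for Slc15a2 (0.02 on both). Sizes varied. Slc26a3 ranged from -0.75 to -0.95 over its 4 probe sets and Slc4a4 from -0.58 to -0.94 over its own 4. Slc9a3 gave -0.92 on its brightest probe set and -0.22 on a much dimmer one, and Slc16a10 ran from -0.09 to -0.88. Slc13a1 gave -0.04 on its brightest probe set and -0.58 on the other.

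**Figure D4:**
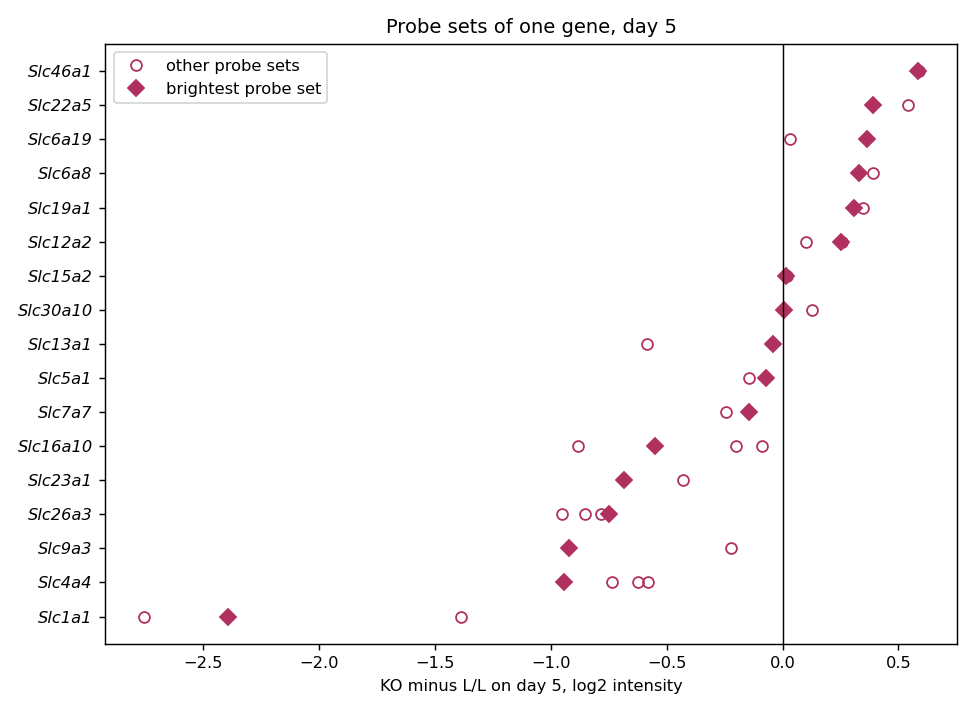
KO minus L/L on day 5 in log2 intensity for the 17 carriers with more than 1 probe set above the threshold; filled diamonds are the brightest probe set, used in the text, and open circles the others. All points of a gene lie on 1 side of 0, and Slc1a1 spans -2.76 to -1.39.

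Further genes of the same pathways came from lists chosen alongside the carriers, again with earlier results of these data known. Of 15 partners of carriers (heavy chains, scaffolds, pumps and channels), 11 were measured above the threshold; none differed by 1.5-fold on day 5 and none passed either test of genotype. Their largest mean differences were 0.26 for Sgk1, a kinase that stimulates carriers, -0.15 for the potassium channel Kcnq1, and -0.14 for both Slc3a2, the heavy chain partner of Slc7a7 and Slc7a8, and Bsg, the partner of Slc16a1. Of 40 other carriers and binding proteins of the same substrates, 33 were above the threshold, and on day 5 there were 6 lower by 1.5-fold or more, against 3.1% of all genes, and 2 higher, against 5.19%. The share of higher ones was thus near that of all genes. The lower ones were the nucleoside carrier Slc28a3 (-1.11), the imino acid carrier Slc6a20a (-1.06), the sodium-glucose cotransporter relatives Slc5a4b (-1.05) and Slc5a4a (-0.73), the calcium-binding protein S100g (-1.05) and the amino acid carrier Slc43a2 (-0.71). The higher ones were the glucose carrier Slc2a1 (0.87) and the phosphate carrier Slc20a2 (0.79). For Slc5a4b the difference fell by 0.40 per day (limma, adjusted p = 0.0396), the only pass in that list. Slc6a20a read 3821, 3569 and 4131 in L/L against 3426, 2534 and 1980 in KO, so it was lower in KO on each day.

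Markers of several other cell types also differed between genotypes on day 5. For the enterocyte list the median difference was 0.13, and 0 of its 12 genes reached 1.5-fold. Myeloid markers had a median of 1.00, with 5 of 6 higher by 1.5-fold or more and a summed intensity of 4538 in KO day 5 against 2105 to 3408 on the other arrays. Paneth cell markers had a median of 1.07 (5 of 5 higher; summed 39180 against 22851 to 31576), and enteroendocrine markers 1.02 (5 of 7; 6985 against 3521 to 5888). Endothelial markers had a median of 0.58 (3 of 6) and fibroblast markers 0.43 (1 of 6). Proliferation markers had a median of -0.39 (3 of 8 lower), but they were mixed: 3 of the 8 were higher in KO on all 3 days and 1 was lower on all 3. Over all genes, 5.19% were 1.5-fold or more higher on day 5 and 3.1% lower. Summed intensity on day 5 was closer in KO and L/L for T cell markers (1388 and 1413) and goblet cell markers (71706 and 66285). The same held for tuft cell (281 and 255) and distal small intestine markers (6733 and 6927). The stem cell list held Olfm4 at -1.97 and Sox9 at 1.43, and its summed intensity was 3262 in KO day 5 against 6232 to 7621 elsewhere. That sum is on the linear scale, so the brightest genes weigh most in it. Of the 6 stem cell genes, 2 were higher in KO on all 3 days and 1 was lower on all 3. The part of all these markers in the carriers' differences was not tested.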

How the data were processed

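RNA of 6 pools was hybridised to 6 Affymetrix arrays, and the authors deposited 1 linear intensity per array and probe set. Partek and RMA are named without versions, per the submitters' processing notes. Values ran from 3.82 to 31146, not on the log2 scale assumed when the tests were planned, so log2 of the deposited intensity was taken, without pseudocount or further normalization. Of 45101 probe sets, 64 were controls, 34945 had 1 gene in the platform annotation, 932 several and 9160 none listed. Those naming more than 1 gene were dropped, the brightest of the rest represented a gene, and genes with a mean above the 40th percentile of non-control probe sets (log2 5.28) were kept.

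Genotype over the 3 days (day as a factor), its change with day (genotype by centred day) and day differences over both genotypes were tested with limma 3.58.1 in R 4.3.3 (lmFit and eBayes, two-sided, Benjamini-Hochberg at 0.05 over 13042 genes). Residual degrees of freedom were 2, or 1 for the change with day, plus priors of 3.03 and 4.76. P-values measure only how the differences varied between days, or departed from a straight line, in pooled RNA. The tests were run on simulated data first. All members are named; values on each array are given for those past a test, for those at 1.5-fold between genotypes on any day or between days in L/L, for 8 fixed genes, for Slc5a6 (1.5-fold between days in KO alone), and for a few genes of other lists chosen after their values were seen. The members and lists were chosen with earlier results of these data known. Alternatives covered probe sets, filters, an offset of 32, scaling, eBayes trend, coding of day, the day term and each day left out.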

Additional observations from a re-analysis of the deposited data

Results flagged for a closer look

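The difference between KO and L/L in Slc1a1, the glutamate and aspartate carrier, differed between the days: it fell by 0.78 per day on the log2 scale (SE 0.07; limma, adjusted p = 0.0373), or a slope of -0.78. The differences were 0.02, -1.15 and -2.39 on days 2, 3 and 5, each from 1 pooled array per genotype. The slope was past the threshold under 8 of 9 alternatives and not without the filter on dim genes (adjusted p = 0.169).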

How the results depend on the processing

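The count of all genes called for genotype, 3, became 1 with the mean of all probe sets and ranged from 0 to 2 with a day left out. The 160 genes whose difference changed with day became 0 without a filter, 275 with the filter at the 60th percentile, 550 with the offset of 32, 312 after median centring, 531 with the trend setting and 63 with days coded in order. Carriers called there, 1 by the fit reported, were 2 with the mean of probe sets, 0 without a filter, 5 with the stricter filter, 10 with the offset, 5 after median centring and 10 with the trend setting; the cause was not tested. Genes differing between days 3 and 2 went from 0 to 2 with day 5 left out. The change with day could not be fitted with a day left out.

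Carriers 1.5-fold higher in KO on day 3 went from 1 to 0 with the stricter filter, and those on day 5 from 1 to 2 with the mean of probe sets, without probe sets ending _x_at, _s_at or _a_at, and with cyclic loess. Those lower in L/L on day 3 against day 2 went from 1 to 0 with the stricter filter and to 2 with cyclic loess, and those higher on day 5 from 0 to 1 without the probe sets that can bind several transcripts. The count of 9 lower on day 5 stayed between 7 and 9.

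Slc13a1 reversed where its probe sets were averaged, with 0.014 between days 5 and 2 in L/L. It did so also where the probe sets that can bind several transcripts were left out, which leaves its dimmer one: 0.65 in L/L and 0.10 in KO between days 5 and 2, and 0.37 and 0.0079 over both genotypes for days 5 and 3 against day 2. The genotype test was paired by day, which served as the block. Without the day term no carrier passed the test of genotype. The 6 pooled arrays limit every comparison, and no detection call was used, so dim genes such as Slc15a2 are judged by the threshold alone.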
